A study of Mus musculus with 2 samples.

Results

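The connexins of the oocyte, the granulosa cells and the vessels, Gja1, Gja4, Gja5, Gjc1 and Gjb2, were examined in cultured mouse ovaries. All probes of these genes that are not array controls were taken by their RefSeq transcript, which gave 5 of the 20658 genes named on the array, measured by 6 probes at 15 spots. Ovaries of 2-week-old female mice were cut lengthwise into symmetrical pieces and cultured for 3 days at 37 °C with tachykinin (TK) receptor (TKR) agonists or with TKR antagonists. According to the methods, the agonists were an analogue of substance P for TACR1, GR-64349 for TACR2 and a succinylated fragment of substance P for TACR3, and the antagonists were a non-peptide compound for TACR1, GR-94800 for TACR2 and SB218795 for TACR3. Each ligand was used at 1 μM. The paper's account of its screen speaks of all the TKR antagonists, while the array methods join the ligands with "or". Whether the ligands of a group were given together to the same pieces or separately is therefore not settled. Each ratio compares the agonist set with the antagonist set and no single ligand. The arrays hold no untreated culture, so a rise with the agonists and a fall with the antagonists cannot be told apart. No deletion or transgene is named for these mice, and their strain and the number of ovaries behind each RNA are not given in the sources used here. Each group was measured with 1 single-colour array, on which a spot's brightness follows the amount of 1 transcript. The spread between ovaries is therefore unknown, and the values below are given without a test.

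Connexins are membrane proteins that assemble into channels joining the cytoplasm of neighbouring cells, the gap junctions, through which ions and small metabolites pass. In the ovary, Gja4 (connexin 37, Cx37) is the connexin of the oocyte and builds the junctions between oocyte and granulosa cells, and female mice without it are infertile. Gja1 (Cx43) couples the granulosa cells to each other, and follicles lacking it stop growing early. In vessels, Gja5 (Cx40) and Gja4 are connexins of arterial endothelium, while Gjc1 (Cx45) is found in vascular smooth muscle and Gjb2 (Cx26) is mainly a connexin of epithelia.

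Gja5 was the connexin with the large difference, 5.03-fold higher on the agonist array. Gjb2 and Gja4 were higher by 1.39-fold and 1.28-fold, and Gjc1 and Gja1 lay within 0.1 of the median of all genes on the log2 scale. A log2 ratio is here the log2 signal on the agonist array minus that on the antagonist array, after each array was scaled to its 75th percentile. The median log2 ratio over the 15258 genes well above background on both arrays was -0.10. Of the 5 connexins, 1 was at least 2-fold higher, against 4.01% of those genes, and 0 were at least 2-fold lower, against 0.577%. At 1.5-fold the connexins counted were still 1 higher and 0 lower, against 9.26% and 4.28%.

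Gja5, the connexin of arterial endothelium, was measured by 2 probes that gave different pictures. The probe A_52_P525317, 1 spot for transcript NM_008121, had a processed signal of 429 ± 43.0 with the agonists against 72.0 ± 8.25 with the antagonists, where the error is the software's own estimate for the spot. It was well above background on both arrays and below the 75th percentile of each (672 and 569). Its log2 ratio was 2.33 with a software error of 0.22. Of the 15258 genes, 57 including Gja5 (0.374%) had a log2 ratio at least as high. The other probe, A_55_P2178753 for the same transcript, had signals of 9.07 with the agonists against 13.7 with the antagonists and was well above background on neither. That probe therefore gives no fold, and the difference of Gja5 rests on a single spot per array. With the values of both probes averaged the log2 ratio was 0.75, or 1.68-fold, and with the normexp background correction, which adds an offset of 50 signal units, it was 1.54, or 2.90-fold.

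Gja4, which serves both the oocyte and the arterial endothelium, was represented by 1 spot of probe A_52_P117352 for transcript NM_008120. Its signal was 5131 ± 513 with the agonists against 3384 ± 338 with the antagonists. The agonist spot was the brighter one, and the log2 ratio was 0.36 with a software error of 0.20. Of all genes well above background on both arrays, 14.9% had a log2 ratio at least as high. The gene did not reach 1.5-fold except without scaling between the arrays or with scaling on the spike-in controls, where the log2 ratio was 0.60 and 0.61.

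Gja1, the connexin of granulosa cells, was printed at 10 spots of probe A_52_P174915 for transcript NM_010288, so that its measurement error is known better than that of the other members. On the agonist array the lowest signal was 4043, the median 4207 and the highest 4433, and the mean was 4216 ± 119 (SD, n = 10 spots). On the antagonist array the lowest signal was 3832, the median 4058 and the highest 4360, and the mean was 4073 ± 159 (SD, n = 10 spots). All 20 spots were well above background, and the deposited signals of the arrays overlapped. The brightest spot was the same on both arrays and carried the software's outlier mark on both, so that 9 spots entered the log2 ratio of -0.19, with an SD between spots of 0.05 and an SE of 0.02. After scaling, the spots lay between 2.59 and 2.72 on the agonist array and between 2.75 and 2.94 on the antagonist array, in log2 units above the 75th percentile, and did not overlap. The direction followed the scaling, however. Without scaling the log2 ratio was 0.05 and with spike-in scaling 0.06, and relative to the median of all genes it was -0.09. Of all genes, 63.7% had a log2 ratio at least as high.

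Gjc1, a connexin of vascular smooth muscle, had signals of 1019 ± 102 with the agonists against 940 ± 94.2 with the antagonists at the single spot of probe A_55_P2107362 for NM_008122. The log2 ratio was -0.13 with a software error of 0.20, so the spots could not be told apart within their measurement error. It was 0.12 without scaling and 0.12 with spike-in scaling, and 54.3% of all genes had a log2 ratio at least as high as in the reported scaling.

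Gjb2, the epithelial connexin, was measured at the single spot of probe A_52_P382886 for NM_008125, well above background on both arrays. Its signal was 143 ± 15.0 with the agonists against 87.0 ± 9.85 with the antagonists. The agonist spot was brighter, with a log2 ratio of 0.48 and a software error of 0.22, and 11.5% of all genes had a log2 ratio at least as high. It was 0.27 with the normexp correction.

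**Figure D1:**
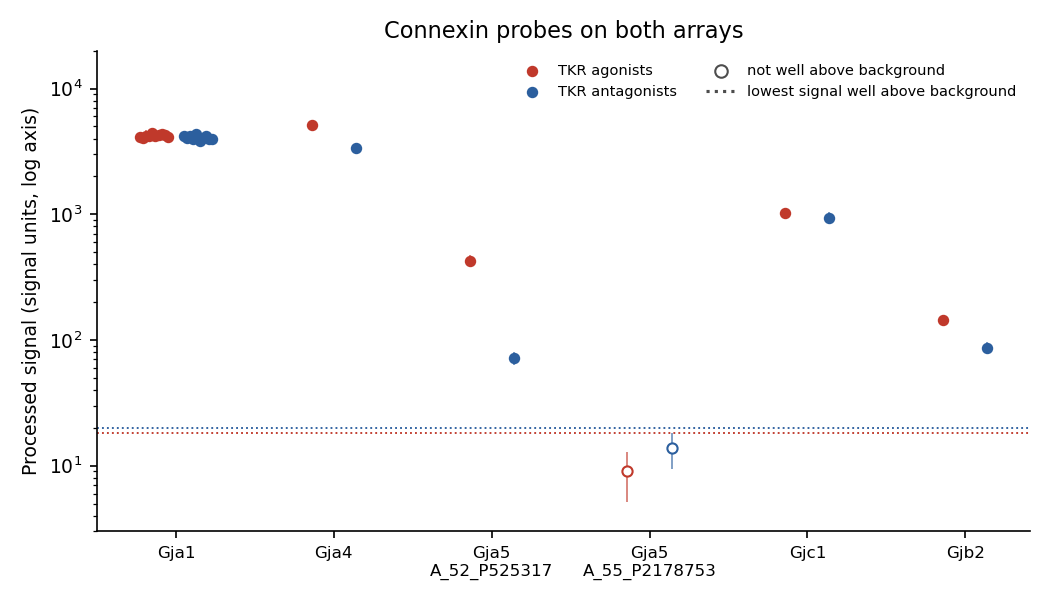
Processed signal (signal units, log axis) of every spot of the 6 connexin probes on the agonist array (red) and the antagonist array (blue), with the software's error of each spot as bars. Open circles are spots not well above background and dotted lines the lowest signal well above background, 18.1 and 19.9. The Gja5 probe A_52_P525317 is the one whose spots stand far apart, 429 against 72.0, and the other Gja5 probe lies below both lines.

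The members were then compared with each other within the same pair of arrays. The log2 ratio of Gja5 was above those of Gjb2, Gja4, Gjc1 and Gja1 by 1.86, 1.97, 2.46 and 2.52. These gaps were between 5.93 and 11.0 times the combined software error, which covers the spots and not the ovaries. Gja4 exceeded Gja1 by 0.55, or 2.55 times the combined error. This was measured over whole pieces of ovary, in which the oocyte and endothelial parts of Gja4 are not separated. Gjb2 and Gja4 differed by 0.12 with an error of 0.30, and Gja1 and Gjc1 by 0.06 with an error of 0.22, so neither pair could be ordered. A setting that shifts a whole array by 1 constant leaves these gaps as they are, but the treatment of the Gja5 signal does not. With the mean over both Gja5 probes the gap to Gjb2 became 0.27 and that to Gja4 became 0.39. The second Gja5 probe, well above background on neither array, had a software error of 0.77. The combined errors above leave that probe out and do not apply to these 2 gaps. With normexp the gaps to Gjb2 and Gja4 were 1.27 and 1.20. Relative to the median of all genes the log2 ratios were 2.43 for Gja5, 0.57 for Gjb2, 0.45 for Gja4, -0.03 for Gjc1 and -0.09 for Gja1.

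The probes printed at 10 spots show how far a single spot can be trusted at the signal of each member. Near Gja5, within 1 log2 unit of its mean signal, 64 such probes had a median SD between spots of 0.12 in the log2 ratio and a largest SD of 0.25. Near Gjb2 the values were 0.15 and 0.29 over 57 probes, and near Gja4 0.06 and 0.10 over 61 probes. The log2 ratios of Gja5, Gjb2 and Gja4 were larger than the largest of these SDs, though with normexp that of Gjb2 (0.27) was not. That of Gjc1 (-0.13) was smaller in size than the largest SD near it, 0.15 over 86 probes. That of Gja1 (-0.19) was larger in size than the largest SD near it, 0.10 over 62 probes, yet its sign changed with the scaling. The SDs do not cover the scaling between the arrays. The antagonist spot of Gja5 (72.0) was fainter than its mean signal and near that of Gjb2 (87.0). The SDs near Gja5 may therefore be too small for that spot. They also do not cover the difference between the 2 Gja5 probes. Spots of 1 array share its RNA, so these SDs say nothing of the spread between ovaries.

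**Figure D2:**
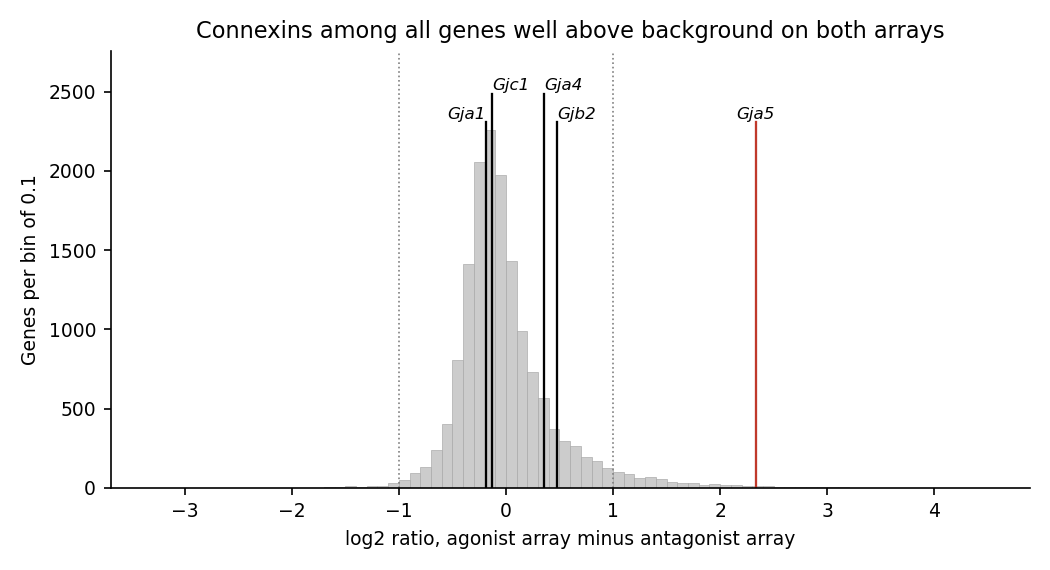
Number of genes per bin of 0.1 in log2 ratio (agonist array minus antagonist array) for the 15258 genes well above background on both arrays, with vertical lines at the connexins and dotted lines at 2-fold. Gja1 and Gjc1 stand at the peak, Gja4 (0.36) and Gjb2 (0.48) on its right side, and Gja5 (2.33) in the far right tail.

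The other connexins and the pannexins, relatives in channel structure that mostly form single-membrane channels, lay near the median of all genes where they could be measured on both arrays. The list was written with earlier results of these arrays known. Of its 18 genes, 11 were well above background on neither array, among them Gjb6 and Gjd2, and 6 were measured on both. Of these 6, 1 was higher and 5 lower, where 37.7% and 62.3% of all genes were, and 0 reached 2-fold. Their median log2 ratio was -0.07 against -0.10 for all genes. Gjb1 (Cx32), a connexin of liver and myelinating glia, had signals of 1034 and 863 and a log2 ratio of 0.02. Panx1, a widely expressed channel for ATP release, had signals of 4965 and 4888 and a log2 ratio of -0.22. The dimmer Gja10 (-0.09), Gjc3 (-0.04) and Gja3 (-0.22), the last a connexin of the lens, had software errors of at least 0.29, larger than their ratios.

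Genes that hold, move or remove connexins were taken as gap junction partners, and 11 of the 12 were well above background on both arrays. Of these 11, 7 were higher and 4 lower, where 37.7% and 62.3% of all genes were, and 0 reached 2-fold. The median log2 ratio was 0.15 against -0.10 for all genes. Cav1, the caveolin of endothelial caveolae, was highest at 0.82, with signals of 207 and 99.6, followed by Dbn1 (drebrin, an actin-binding partner of Cx43) at 0.42. The junction plaque scaffold Tjp1 (0.06) and the connexin trafficking factor Cnst (0.16) differed from 0 by less than their software error of 0.20. Lowest were the adhesion molecule Cdh2 (N-cadherin) at -0.30 and the ubiquitin ligase Nedd4 at -0.13. Src, a kinase that phosphorylates Cx43, was well above background on the agonist array alone, with a bound of 1.15-fold.

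**Figure D3:**
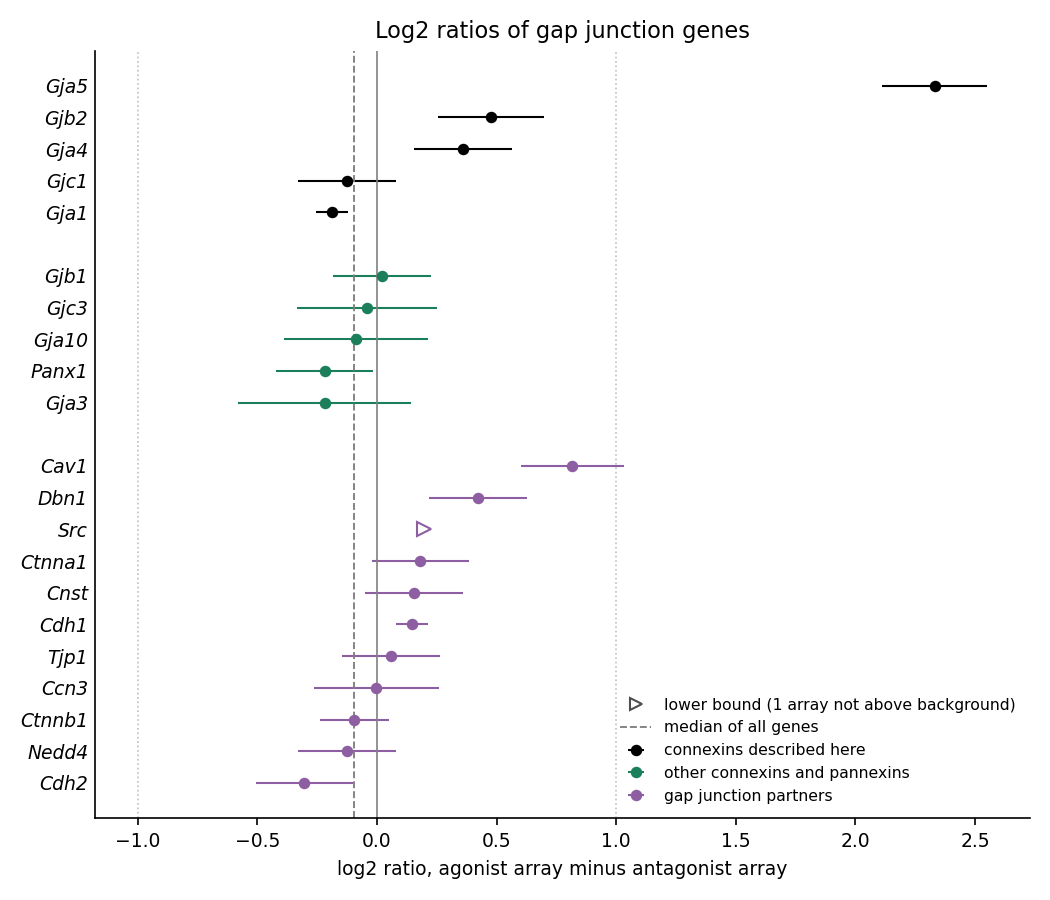
Log2 ratio (agonist array minus antagonist array) of the 5 connexins (black), the other connexins and pannexins (green) and the gap junction partners (purple) that were well above background on at least 1 array and are reported by name, with the software's error as bars. The arrowhead is a lower bound, the dashed line is the median of all genes (-0.10) and dotted lines mark 2-fold. Gja5 alone lies beyond the 2-fold line.

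Because whole pieces of ovary were measured, the connexins were set beside genes that mark the cells they belong to. In such bulk RNA, fewer cells of a type and less RNA per cell cannot be told apart. The counts below stand beside the shares over all genes well above background on both arrays. Of those, 37.7% were higher on the agonist array and 62.3% lower. At least 2-fold higher were 4.01%, and at least 2-fold lower 0.577%. For Gja5 the matching cells are those of arteries. Of the 6 arterial endothelium genes, 6 were well above background on both arrays, 5 were higher on the agonist array, 1 reached 2-fold, and their median log2 ratio was 0.86. Hey1 (1.03) and Efnb2 (0.98), a Notch target and an ephrin of arteries, were highest, and Dll4 (0.73) and Bmx (-0.10) lowest. Their summed signal, in multiples of the array's 75th percentile, was 22.5 with the agonists against 12.0 with the antagonists. Such a sum, here and for the lists below, follows mostly the brightest probes of its list. By its brighter probe Gja5 lay above 6 of these 6 genes, and 1.47 above their median. With the mean over all probes of each gene, Gja5 was at 0.75 and the arterial median at 0.70. That mean takes in the Gja5 probe that was well above background on neither array. With the median over probes well above background on both arrays, Gja5 was at 2.33 and the arterial median at 0.82.

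The general endothelium genes were also higher on the agonist array. Of 10 genes, 9 were well above background on both arrays, 8 of these were higher, and the median log2 ratio was 0.90. Tie1 (1.62) and Cldn5 (1.07), a receptor tyrosine kinase and the tight junction protein of endothelium, were highest, and Egfl7 (0.41) and Kdr (-0.27), the main VEGF receptor, lowest. Tek, the angiopoietin receptor, was at least 4.10-fold higher, being not well above background with the antagonists. The summed signal of the list was 84.6 with the agonists against 66.2 with the antagonists. Without Tek, Gja5 by its brighter probe lay above 9 of the 9 genes and Gja4 above 1 of them, 0.54 below the median. With the mean over all probes of each gene, which takes in the undetected Gja5 probe, Gja5 (0.75) was below the endothelium median (0.90). With the median over probes well above background on both arrays, Gja5 was at 2.33 and the endothelium median at 0.90. The part of the endothelial genes in the difference of Gja5 was not tested.

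Gja4 was set beside the oocyte genes as well. Of 10 oocyte genes, 10 were measured on both arrays, 7 were higher on the agonist array, and their median log2 ratio was 0.20, which is 0.16 below Gja4. Kit (0.71), the receptor of the granulosa cells' Kit ligand, and the transcription factor Figla (0.59) were highest, and Zp3 (-0.13) and Gdf9 (-0.08), a zona pellucida protein and an oocyte growth factor, lowest. The summed signal of the oocyte list was 216 with the agonists against 223 with the antagonists. It mostly follows Gdf9, by far the brightest of the list, with signals of 95396 and 85421. The part of the oocyte and endothelial genes in the difference of Gja4 was not tested. Gja4 exceeded 7 of the 10 oocyte genes and 9 of the 10 granulosa genes.

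Gja1 lay above the middle of the granulosa genes, whose median log2 ratio was -0.47. Of these 10 genes, 2 were higher and 8 lower on the agonist array, and 1 was at least 2-fold lower. Inhbb (-1.17), an activin subunit, and Fshr (-0.73), the FSH receptor, were lowest, and the AMH receptor Amhr2 (0.38) and the granulosa transcription factor Foxl2 (0.32) highest. The summed signal was 170 with the agonists against 205 with the antagonists. Gja1 exceeded 6 of the 10 genes and lay 0.28 above their median, while it was below 8 of 9 endothelium genes and 8 of 8 smooth muscle and pericyte genes. The part of the granulosa genes in the level of Gja1 was not tested.

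Gjc1 lay below the smooth muscle and pericyte genes. Of those 9 genes, 8 were measured on both arrays, 8 of these were higher on the agonist array, and the median log2 ratio was 0.61, or 0.73 above Gjc1. Rgs5 (1.27), a pericyte regulator of G protein signalling, and the smooth muscle myosin Myh11 (0.99) were highest, and Pdgfrb (0.38) and Notch3 (0.33), receptors of mural cells, lowest. The lowest of these ratios was still above Gjc1. The summed signal was 45.8 with the agonists against 29.0 with the antagonists. Des, an intermediate filament of muscle, was at least 2.63-fold higher, being not well above background with the antagonists.

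Gjb2 was set beside the surface epithelium, the mesothelial layer covering the ovary. Of its 8 genes, 8 were higher on the agonist array and 5 reached 2-fold, with a median log2 ratio of 1.09. Lrrn4 (1.79) and Krt19 (1.40) were highest and Krt8 (0.91) and Upk3b (0.62) lowest, and the summed signal was 37.4 with the agonists against 17.5 with the antagonists. Gjb2 was below 8 of 8 of these genes, by 0.61 against their median. The part of the surface epithelium in the ratio of Gjb2 was not tested.

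**Figure D4:**
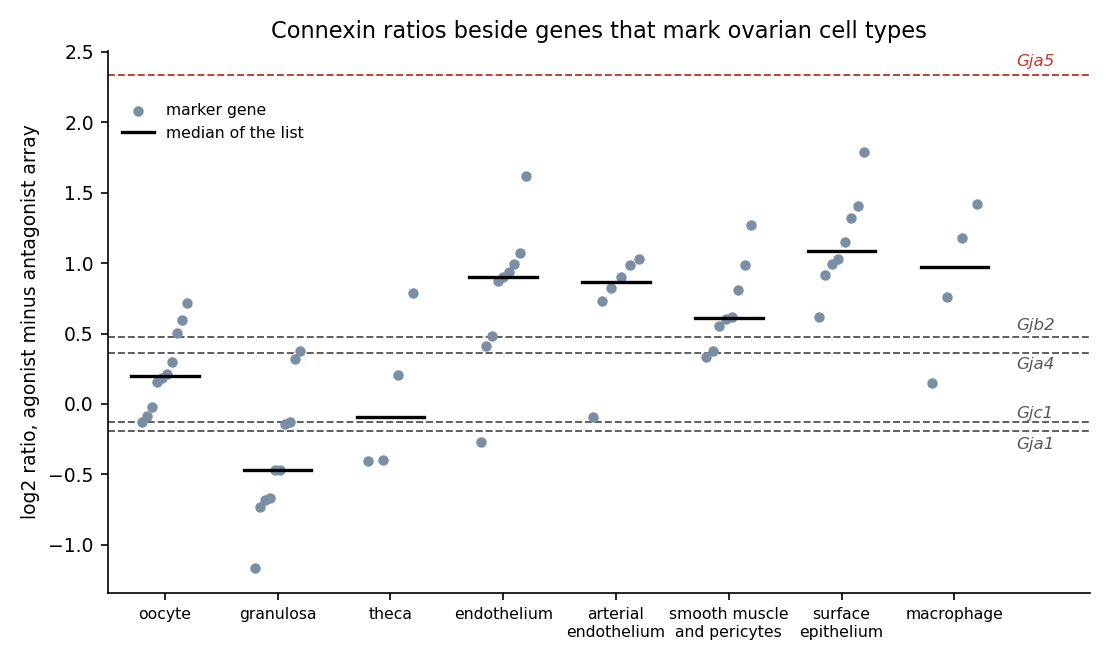
Log2 ratio (agonist array minus antagonist array) of each marker gene well above background on both arrays (points) and the median of its list (bars), with dashed lines at the 5 connexins. Gja5, drawn by its brighter probe (2.33), lies above every marker gene drawn, the highest of which is Lrrn4 (1.79). Tek is not drawn, being well above background on the agonist array alone. Gja1 and Gjc1 lie below the oocyte median (0.20) and above the granulosa median (-0.47).

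The marker genes with the nearest log2 ratios were sought among the 59 that were well above background on both arrays. With 1 pair of arrays, nearness compares a single number per gene. Nearest to Gja1 were Inhba (a difference of 0.05) and Kitl (0.06), both of the granulosa list, and nearest to Gja4 were Amhr2 and Pdgfrb (0.02 each). Gjc1 was nearest to Kitl and Zp3, with differences under the second decimal, and Gjb2 to Pecam1 (0.01) and Sohlh1 (0.03). Among these 59 genes Gja5, by its brighter probe, had no close neighbour, the nearest being Lrrn4 at 0.54 and Tie1 at 0.71. The endothelial gene Tek was left out of this search because its antagonist spot was too dim. The log2 ratio of Tek had a lower bound of 2.04, against 2.33 for Gja5, so Tek may be nearer than Lrrn4.

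Across 13 other ways to process the files, Gja5, Gja4 and Gjb2 stayed above 0 in 13 of 13. These ways are not independent checks. Several change how spots or probes are averaged and cannot alter a gene with a single spot, and several only shift a whole array by a constant. Gja5 ranged between 0.75 and 2.58, Gja4 between 0.30 and 0.61 and Gjb2 between 0.27 and 0.72. Gja1 and Gjc1 were below 0 in 11 of 13 and above it in the others, no scaling and spike-in scaling, which moved the median of all genes to 0.15 for both.

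**Figure D5:**
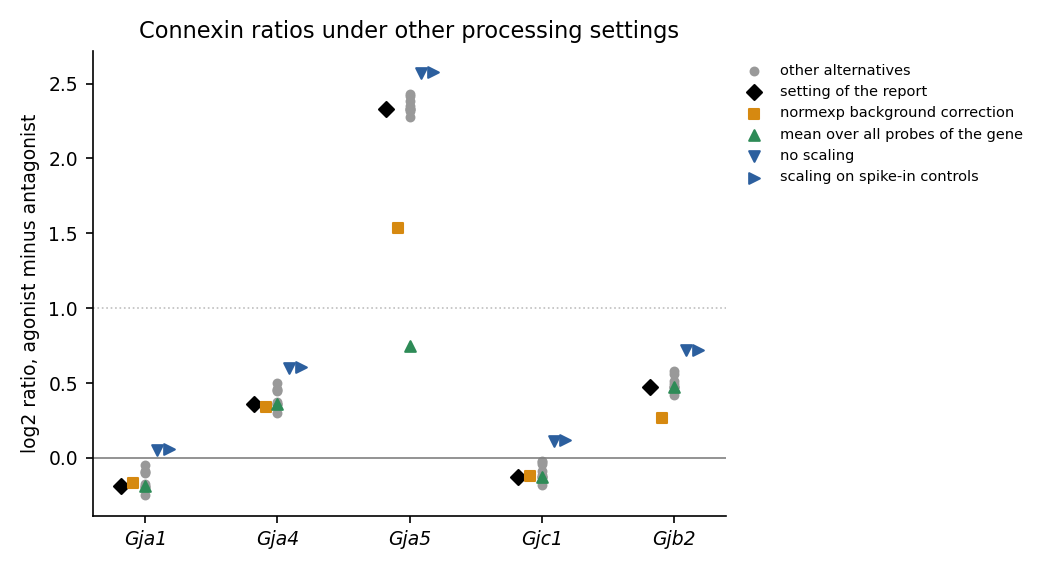
Log2 ratio (agonist array minus antagonist array) of the 5 connexins in the setting of the report (black diamonds) and under 13 alternatives, with the 4 that moved a value most drawn as coloured symbols and a dotted line at 2-fold. Gja5 stays beyond 2-fold except with the mean over both of its probes (0.75), and Gja1 and Gjc1 cross 0 without scaling or with spike-in scaling.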

How the data were processed

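RNA was labelled with Cy3 and the arrays were read with Agilent Feature Extraction. The authors deposited spot intensity values on a linear scale, background-corrected and not scaled between arrays, with detection and outlier flags. Their summary intensity values equal these signals times 1.99 (agonists) and 2.19 (antagonists). Of 59305 spots other than controls, 65.4% and 61.6% were well above background, and 0 were saturated. From each log2 signal the log2 of its array's 75th percentile (672 and 569 signal units) was subtracted. Spots marked as outliers were left out and the remainder averaged per probe. RefSeq transcripts for GRCm38 named 27230 of 55674 probes. The arrays were designed on another assembly, so no coordinates are given. Of several probes of a gene the one with the highest mean signal was used. A probe was called well above background if over 50% of its spots were. For a probe dim on 1 array, the bound compares the bright signal with the dim one or, if higher, with the lowest signal well above background there.

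The number of arrays limits precision, and errors are those of spots. The members and lists were chosen with earlier results of these arrays known. Named genes are the connexins, family members detected on at least 1 array, the 2 highest and 2 lowest of each list, and the 2 marker genes nearest to each member. Other partner genes, genes with bounds and the 2 undetected family genes were chosen after their values were seen. Insl3 and Cd68 matched no probe. Some genes of the family and partner lists are counted but not reported by name here. Normexp used the median spot signal. The tools were Python 3.11.15, numpy 2.4.6, pandas 2.3.3, statsmodels 0.14.6, R 4.3.3 and limma 3.58.1.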

Additional observations from a re-analysis of the deposited data

How the results depend on the processing

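No paired analysis was possible because there is a single array on either side and nothing was tested. A value is said to have moved when its change reached a limit that differed by kind of value. The limit was the SD between spots for Gja1 and the software error for the other connexins. For a list it was the median software error of its genes. A count was said to have moved when the larger value was over 1.5 times the smaller. Without scaling the log2 ratios became 0.053 for Gja1, 0.60 for Gja4, 2.57 for Gja5, 0.12 for Gjc1 and 0.72 for Gjb2, and with spike-in scaling 0.058, 0.61, 2.58, 0.12 and 0.72. Gja1, whose limit was the smallest (0.05), also moved to -0.24 with scaling on the median and -0.10 on detected probes. It moved to -0.091 with quantiles, -0.045 with loess and -0.087 with the authors' values. Gja5 became 1.54 with normexp and 0.75 with the mean over both probes, where the count of connexins at least 2-fold higher became 0. The count of those at least 2-fold lower was 0 in every setting. The median of the gap junction partners became 0.39 without scaling and 0.39 with spike-in scaling. That of the other connexins and pannexins became -0.38 with dim values set to the lowest detected signal, since most then take the ratio of the 2 lowest signals, and it was above 0 at 0.17, 0.18, 0.02 and 0.03 without scaling, with spike-in scaling, on detected probes and with the authors' values. Of 120 values of the cell type medians, 99 stayed within the error and 21 moved. The theca median was above 0 in 7 of 15 settings, and the other 7 lists kept their sign in all 15. Over all genes, the 612 at least 2-fold higher and 88 lower went to 992 and 39 (no scaling), 998 and 38 (spike-in), 322 and 33 (normexp), 1413 and 653 (1.5-fold) and 1349 and 554 (dim probes kept), and the authors' values gave 58 lower. Counting each probe once in the 75th percentile was added after the data were seen and changed Gja5 to 2.35. Signal over background limits the second Gja5 probe.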

Other observations

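Cell types with no connexin assigned to them here were measured as well. Of the 5 macrophage genes on the array, 4 were well above background on both arrays and 4 were higher with the agonists, with a median log2 ratio of 0.97. Adgre1 (1.42), a surface receptor of macrophages, and the complement gene C1qa (1.18) were highest and Lyz2 (0.76) and Csf1r (0.15) lowest. By its brighter probe Gja5 was above 4 of these 4 genes, and Gja1 and Gjc1 were below 4 of 4. Of the 5 theca genes, 4 were measured on both arrays, and the list had a median of -0.10. Cyp11a1 (0.79) and Hsd3b1 (0.21), enzymes of steroid synthesis, were higher, and Star (-0.40) and Cyp17a1 (-0.41), the cholesterol carrier and the androgen-forming enzyme, were lower. Gjc1 and Gja1 lay between those pairs.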
